A study of Mus musculus with 6 samples.

Results

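The Sox genes encode transcription factors that share a DNA-binding domain, the HMG box, and fall into lettered groups by its sequence. The 10 genes described here are Sox1, Sox2 and Sox3 (group B1), Sox21 (group B2), Sox4 and Sox11 (group C), Sox6 (group D), and Sox8, Sox9 and Sox10 (group E). They were taken by gene symbol from a deposited table of 54884 entries, which held 20 Sox genes in all. All 10 passed the filter of a mean of at least 1 FPKM over the libraries, as did 13702 entries altogether. FPKM values are fragment counts divided by transcript length and by the total of mapped fragments, so the levels of different genes are compared here per length.

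The cells were neural stem cells isolated from the hippocampus of C57BL/6 mouse embryos at day 14 of gestation and used between passages 3 and 8. A lentivirus carried either an siRNA against circHIPK2, a circular RNA of the Hipk2 gene, or a control siRNA called circCon. There were 3 poly(A)-selected RNA libraries with circHIPK2 siRNA and 3 control libraries, all from infected cells. The labels do not say whether libraries of a group came from separate cultures. The p-values below therefore reflect the scatter of these 6 libraries alone, and that scatter could be purely technical. The circular RNA itself was not analysed here, so its level could not be used to check the labels.

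SOX proteins bend DNA through the HMG box and usually act together with a partner factor bound next to them. In the developing brain, the B1 proteins keep cells in the progenitor state and SOX21 counteracts them. SOX4 and SOX11 act in the differentiation of neurons, and the E proteins act in the formation of glia and of neural crest cells. SOX6 lacks an activation domain of its own and works with partners.

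A stretch of 90 bases from inside the HMG box is shown for the 10 genes because the group letters are read from this domain, and because it shows how far short reads from one Sox gene resemble another. Sequences are coding strands from GENCODE M21 (GRCm38), and capitals mark the 30 positions at which all 10 genes have the same base.
Sox1: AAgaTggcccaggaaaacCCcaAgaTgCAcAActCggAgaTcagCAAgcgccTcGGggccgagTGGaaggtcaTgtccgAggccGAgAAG
Sox2: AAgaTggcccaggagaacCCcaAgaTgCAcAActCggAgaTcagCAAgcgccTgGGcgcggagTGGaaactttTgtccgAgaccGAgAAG
Sox3: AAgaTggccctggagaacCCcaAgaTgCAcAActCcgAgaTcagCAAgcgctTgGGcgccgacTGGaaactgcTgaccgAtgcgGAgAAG
Sox21: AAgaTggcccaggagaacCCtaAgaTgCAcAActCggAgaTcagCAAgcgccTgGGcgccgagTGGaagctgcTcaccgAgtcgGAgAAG
Sox4: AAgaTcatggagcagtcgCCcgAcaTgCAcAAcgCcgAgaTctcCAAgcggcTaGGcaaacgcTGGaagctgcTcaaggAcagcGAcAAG
Sox11: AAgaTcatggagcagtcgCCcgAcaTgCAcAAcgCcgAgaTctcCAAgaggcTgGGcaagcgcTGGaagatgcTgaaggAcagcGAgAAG
Sox6: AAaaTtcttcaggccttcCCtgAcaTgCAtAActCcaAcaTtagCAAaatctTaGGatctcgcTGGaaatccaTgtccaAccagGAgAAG
Sox8: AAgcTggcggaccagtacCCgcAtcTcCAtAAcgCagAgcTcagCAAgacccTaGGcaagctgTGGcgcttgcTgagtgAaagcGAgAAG
Sox9: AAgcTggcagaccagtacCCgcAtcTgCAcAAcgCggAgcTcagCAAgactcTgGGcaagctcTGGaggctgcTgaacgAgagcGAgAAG
Sox10: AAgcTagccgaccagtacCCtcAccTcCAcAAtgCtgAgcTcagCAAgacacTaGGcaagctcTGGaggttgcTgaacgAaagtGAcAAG

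The lower-case bases carry the differences between genes. Within a group, the 10 pairs of genes were between 83.3% and 93.3% identical in this stretch. Between groups, the 35 pairs were between 48.9% and 74.4% identical. Over the whole coding sequence, the longest run of identical bases was 48 nt, shared by Sox4 and Sox11. It was 45 nt for Sox1 and Sox3, 44 nt for Sox9 and Sox10, and at most 30 nt for genes of different groups. The B and C genes have a single exon each in this annotation, whereas Sox6 has 16 exons, Sox8 and Sox9 have 3 and Sox10 has 5.

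**Figure D1:**
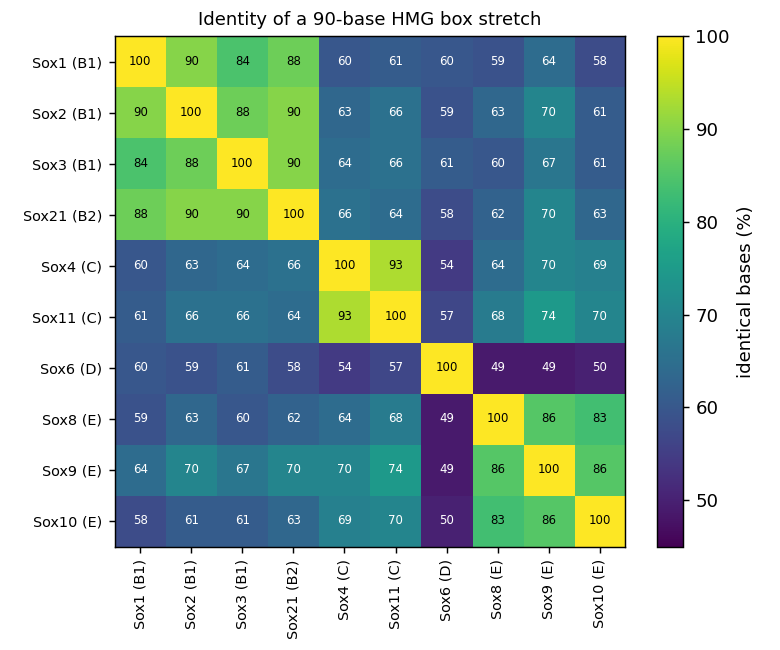
Identity of the 90-base HMG box stretch between each pair of the 10 Sox genes, in percent of identical bases (colour and printed value), with the group letter after each gene. The blocks along the diagonal are groups B, C and E, within which identity is at least 83.3%, and Sox6, the group D gene, stands apart from the others.

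The libraries held between 18400000 and 21910000 fragments by an estimate from the step size of low FPKM values. The 7 Sox genes with 1 annotated transcript then rested on between 569 and 6433 fragments in a library, where counting error is at most 4.19%. Of the neural stem cell and radial glia markers, 8 of 10 passed the filter, with a summed level of 1643 to 2066 FPKM with circHIPK2 siRNA and 1817 to 2342 FPKM in controls. Of the hippocampal and forebrain factors, 6 of 8 passed the filter (62.4 to 71.9 FPKM with circHIPK2 siRNA and 71.7 to 88.1 FPKM in controls), as did 7 of 7 astrocyte markers (358 to 742 FPKM with circHIPK2 siRNA and 406 to 700 FPKM in controls). No marker of these 3 lists passed the test. Microglial, endothelial and mesenchymal markers reached at most 0.481 FPKM, and 3 of 7 microglial and 1 of 6 mesenchymal markers were listed at 0 in all 6 libraries. In contrast, of 9 entries called ribosomal here, Lars2 among them, 8 rose. The word ribosomal names this list only and does not say what each entry encodes. Together the 9 entries held 11.5%, 3.24% and 19.9% of all FPKM in circHIPK2 siRNA libraries 1 to 3. In control libraries 1 to 3 they held 0.580%, 0.426% and 0.321%. Summed liver gene levels were 2.10 to 2.21 FPKM with circHIPK2 siRNA and 39.9 to 64.8 FPKM in controls. Of the liver genes, 10 of 10 fell. Over all entries, 0.117% were called higher and 0.139% lower. All liver genes but Apoa2 had means below 1 FPKM with circHIPK2 siRNA. These passed the filter only through the controls, so the count of liver genes that fell is no test. The liver and ribosomal lists were drawn up after these data had been seen, and their part in the results on the Sox genes was not tested.

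None of the 10 Sox genes passed the test (limma with Benjamini-Hochberg adjustment over all 13702 entries, adjusted p below 0.05), where 0.255% of all entries did (0.117% higher and 0.139% lower). In this bulk RNA, fewer cells of a type and less RNA per cell cannot be told apart. Of the 10 Sox genes, 1 (Sox8) was lower with circHIPK2 siRNA at an unadjusted limma p below 0.05, against 15.5% of all entries. None of the 10 was higher, against 1.83% of all entries. The median log2 fold change on the log2(FPKM + 1) scale was -0.053 over the 10 genes and -0.12 over all entries, and 8 of the 10 lay above the median of all entries. By the deposited values 3 Sox genes were higher and 7 lower, but the split was 8 higher and 2 lower with median-of-ratios scaling, and the same with the ribosomal entries removed. The 2 that stayed lower under both were Sox6 and Sox8. Median-of-ratios scaling moved the median of all entries to -0.00095 and that of the Sox genes to 0.077, and removal of the ribosomal entries moved them to 0.058 and 0.14. With median-of-ratios scaling, 2 Sox genes lay entirely above the controls and 1 entirely below, where 10.1% of all entries did so in each direction.

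**Figure D2:**
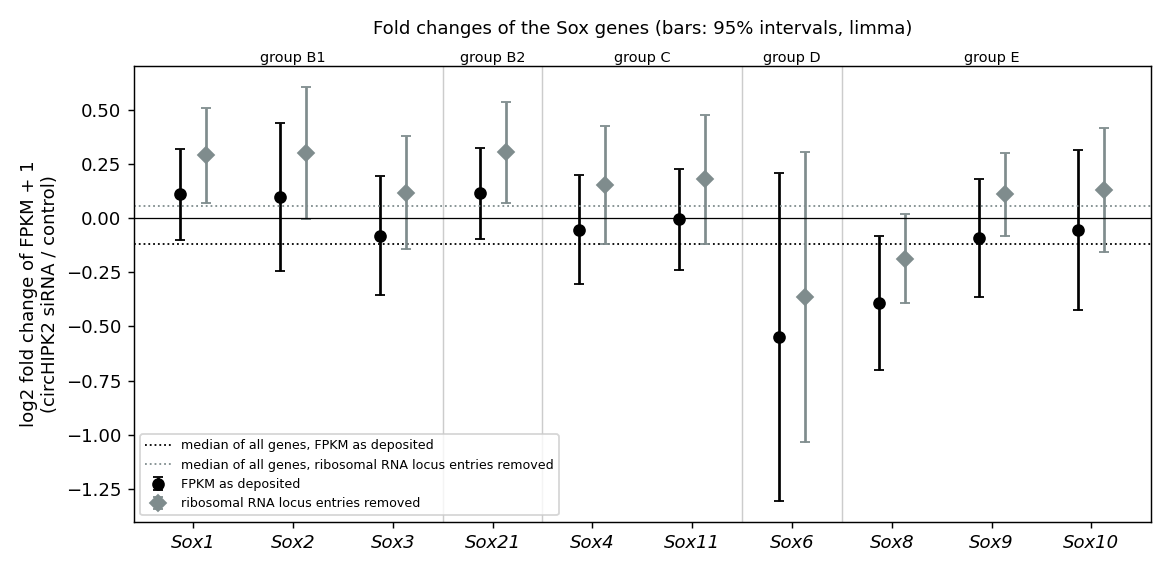
Log2 fold change of FPKM + 1 (circHIPK2 siRNA over control) of each Sox gene, with 95% intervals from limma. Black circles are the deposited values, and grey diamonds are values after removal of the entries called ribosomal. Dotted lines give the medians of all entries, -0.12 and 0.058. Sox6 and Sox8 have the lowest values on both scales, and Sox6 has the widest interval.

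Group B1 holds the genes that mark neural progenitors. Sox2, which is needed to maintain neural stem cells, had 104, 118 and 91.4 FPKM in circHIPK2 siRNA libraries 1 to 3, against 116, 82.2 and 96.3 FPKM in control libraries 1 to 3. It had the highest mean of all Sox genes in both groups, and the lowest single value was that of control library 2. The log2 fold change was 0.097 (95% interval -0.24 to 0.44; limma with Benjamini-Hochberg adjustment, adjusted p = 0.741), and it was -0.022 without control library 2. Sox2 lies inside the longer noncoding gene Sox2ot on the same strand, with no exon base shared in GENCODE M21. Sox2ot had 3.90, 3.75 and 3.82 FPKM with circHIPK2 siRNA, against 2.34, 4.11 and 1.52 FPKM in controls. The groups overlapped for both transcripts.

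Sox1, an early marker of the neural plate, had 6.40, 7.26 and 6.66 FPKM with circHIPK2 siRNA, against 6.33, 6.13 and 6.12 FPKM in controls. It was the only Sox gene whose circHIPK2 siRNA libraries all lay above the controls as deposited, a pattern found in 2.65% of all entries. The gap between the nearest libraries was small, and the log2 fold change was 0.11 (95% interval -0.10 to 0.32; limma with Benjamini-Hochberg adjustment, adjusted p = 0.535). Sox3, an X-linked gene of progenitors, had 20.1, 25.3 and 20.4 FPKM with circHIPK2 siRNA, against 23.9, 20.8 and 24.8 FPKM in controls. Its groups overlapped, and its log2 fold change of -0.080 (95% interval -0.35 to 0.19) changed sign to 0.053 with median-of-ratios scaling.

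Sox21, the group B2 gene, had 9.94, 10.6 and 10.5 FPKM with circHIPK2 siRNA, against 8.86, 9.94 and 9.63 FPKM in controls. Control library 2 reached the lowest circHIPK2 siRNA library, and the other 2 controls lay below it. The log2 fold change was 0.12 (95% interval -0.094 to 0.32; limma with Benjamini-Hochberg adjustment, adjusted p = 0.513). With the ribosomal entries removed, Sox1, Sox2 and Sox21 each lay entirely above the controls, where 14.0% of all entries did, with log2 fold changes of 0.29, 0.30 and 0.30. On that scale Sox1 and Sox21 had an unadjusted limma p below 0.05, against 8.86% of all entries that were higher, and no Sox gene did so in the other direction, against 2.86% of all entries. Their lowest adjusted p was 0.322 (limma with Benjamini-Hochberg adjustment). The noncoding RNA Gm4675, on the opposite strand, shares 713 nt of exon with Sox21, 18.8% of the exon bases of Sox21. It had 0.295, 0.424 and 0.390 FPKM with circHIPK2 siRNA, against 0.787, 0.696 and 0.716 FPKM in controls, entirely below the controls and under the filter for the test.

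**Figure D3:**
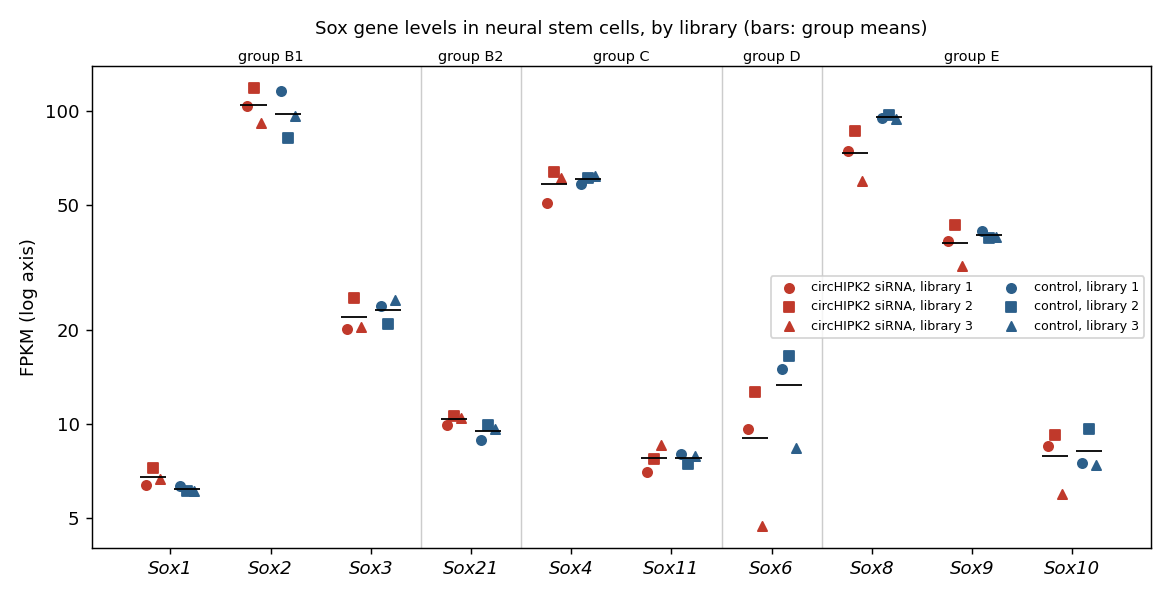
FPKM of each Sox gene (log axis) in circHIPK2 siRNA libraries (red, left) and control libraries (blue, right), with a symbol for each library number and bars for group means. Sox8 is the only gene of the 10 whose circHIPK2 siRNA libraries all lie below the controls, and Sox1 the only one whose libraries all lie above.

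For the 2 group C genes, which promote neuronal differentiation, the differences in mean level were smaller than the spread between libraries. Sox4 had 50.9, 63.7 and 61.1 FPKM with circHIPK2 siRNA, against 58.6, 61.1 and 61.8 FPKM in controls. Sox11 had 7.02, 7.72 and 8.60 FPKM with circHIPK2 siRNA, against 8.02, 7.46 and 7.88 FPKM in controls. The groups overlapped for both genes, and circHIPK2 siRNA library 1 was the lowest. The log2 fold changes were -0.052 for Sox4 (95% interval -0.30 to 0.20) and -0.0048 for Sox11 (95% interval -0.24 to 0.23), and both turned positive with median-of-ratios scaling (0.085 and 0.12). Per length, Sox4 was the more abundant of the pair, and the ratio of Sox11 to Sox4 was 0.138, 0.121 and 0.141 with circHIPK2 siRNA and 0.137, 0.122 and 0.127 in controls. A noncoding RNA on the opposite strand, Gm26735, shares 2616 nt of exon with Sox4, which is 54.6% of the exon bases of Sox4 and 98.8% of its own. It had 39.5, 47.6 and 46.7 FPKM with circHIPK2 siRNA, against 34.0, 40.0 and 48.1 FPKM in controls. Whether strand was used in counting was not given in the sources used here, so reads from the shared bases cannot be told apart.

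Sox6, the group D gene, varied most of the 10 from library to library. This factor has been tied to the timing of neuron and oligodendrocyte formation. It had 9.65, 12.7 and 4.73 FPKM with circHIPK2 siRNA, against 15.0, 16.5 and 8.37 FPKM in controls. Library 3 was the lowest in both groups, and the groups overlapped. The log2 fold change was the largest of the 10, -0.55, but its 95% interval was -1.31 to 0.21 (limma with Benjamini-Hochberg adjustment, adjusted p = 0.400), and it was -0.19 without circHIPK2 siRNA library 3, -0.82 without circHIPK2 siRNA library 2 and -0.83 without control library 3. Its antisense transcript Sox6os had 0.465, 0.314 and 0.600 FPKM with circHIPK2 siRNA, against 0.419, 0.166 and 0.112 FPKM in controls, also with overlap. The coefficient of variation between libraries was 44.5% for Sox6 with circHIPK2 siRNA and 32.5% in controls, where the medians of all entries were 11.6% and 9.49%.

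Among the group E genes, Sox8 stood lower with circHIPK2 siRNA. Sox8, which acts beside SOX9 and SOX10 in glial development, had 74.7, 86.1 and 59.6 FPKM with circHIPK2 siRNA, against 95.0, 97.4 and 94.3 FPKM in controls. All 3 circHIPK2 siRNA libraries lay below all controls, as they did for 22.1% of all entries. The controls lay close together (coefficient of variation 1.72%), and the circHIPK2 siRNA libraries were spread out (18.1%). The log2 fold change was -0.39 with a standard error of 0.14 (95% interval -0.70 to -0.080; unadjusted p = 0.0196, limma), and it did not pass after Benjamini-Hochberg adjustment (adjusted p = 0.224). It was negative under 18 of 18 alternative settings, between -0.51 and -0.19.

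The order of Sox8 over the circHIPK2 siRNA libraries was the reverse of that of the summed share of the ribosomal entries. Among these entries, Gm24270 and Gm42418 had other orders. Sox2, Sox6, Sox9 and Sox10 had the same order as Sox8, and how many of all entries had it was not counted. Library 2, with the smallest ribosomal share, had the most Sox8, and library 3, with the largest share, had the least. With these entries removed and the columns rescaled, Sox8 had 79.3, 84.9 and 71.5 with circHIPK2 siRNA, against 88.5, 88.4 and 91.1 in controls, in FPKM with every library brought to the same sum. The libraries still did not overlap, which on this scale was so for 4.28% of all entries in this direction, and the log2 fold change was -0.19 (95% interval -0.39 to 0.021). It was -0.25 with median-of-ratios scaling, -0.21 with quantile normalization, and -0.25 without circHIPK2 siRNA library 3. The transcript 2810468N07Rik, on the opposite strand of Sox8, had 14.9, 16.2 and 12.8 FPKM with circHIPK2 siRNA, against 21.3, 21.5 and 19.5 FPKM in controls. It too lay entirely below the controls, with a log2 fold change of -0.48 (limma with Benjamini-Hochberg adjustment, adjusted p = 0.139). It shares 329 nt of exon with Sox8, 10.6% of the exon bases of Sox8 and 15.5% of its own. Without known use of strand, reads from those bases cannot be told apart.

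The other group E genes did not stand apart in this way. Sox9, which starts glial development and is also found in neural stem cells, had 38.4, 43.2 and 32.0 FPKM with circHIPK2 siRNA, against 41.5, 39.4 and 39.6 FPKM in controls. Sox10, the factor of the oligodendrocyte lineage that activates myelin genes, had 8.51, 9.23 and 5.98 FPKM with circHIPK2 siRNA, against 7.51, 9.61 and 7.41 FPKM in controls. Both overlapped between groups, and circHIPK2 siRNA library 3 was the lowest for each. The log2 fold changes were -0.091 for Sox9 (95% interval -0.36 to 0.18) and -0.054 for Sox10 (95% interval -0.42 to 0.32), and both turned positive with median-of-ratios scaling (0.044 and 0.068). Summed oligodendrocyte lineage markers, of which 7 of 8 passed the filter and none passed the test, were 618 to 774 FPKM with circHIPK2 siRNA and 773 to 844 FPKM in controls, and their part in the Sox8 and Sox10 values was not tested.

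The 5 most abundant Sox genes came in the same order in both groups, and Sox1 was the least abundant. Sox2, Sox8, Sox4, Sox9 and Sox3 led with means of 104.5, 73.4, 58.6, 37.9 and 21.9 FPKM with circHIPK2 siRNA, against 98.0, 95.6, 60.5, 40.1 and 23.2 FPKM in controls. The libraries of Sox2 and Sox8 were apart with circHIPK2 siRNA and overlapped in controls. Those of Sox8 and Sox4 overlapped with circHIPK2 siRNA and were apart in controls. Sox4, Sox9 and Sox3 were each apart from the next gene in both groups. The lower genes were Sox21, Sox6, Sox10 and Sox11, whose neighbours in the order overlapped. Sox1, at 6.77 FPKM with circHIPK2 siRNA and 6.19 FPKM in controls, overlapped with Sox11 with circHIPK2 siRNA and was apart from it in controls.

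Of the 3 circHIPK2 siRNA libraries, library 2 held the highest value of 9 of the 10 Sox genes, all but Sox11. The share of all entries that were highest in library 2 was not counted. Library 3 held the lowest value of Sox2, Sox6, Sox8, Sox9 and Sox10, and library 1 that of the other 5. With the ribosomal entries removed, library 2 held the highest value of 6 genes and library 3 that of 4. The coefficient of variation was above the median of all entries for 6 Sox genes with circHIPK2 siRNA and for 3 in controls (Sox2, Sox6 and Sox10).

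Shares within the sum of the 10 genes are the same under any scaling that multiplies a whole library by 1 factor. Group B made up 42.6%, 42.0% and 42.8% of the summed FPKM of the 10 genes with circHIPK2 siRNA, against 40.7%, 33.97% and 38.4% in controls. Group E made up 36.9%, 36.1% and 32.4% with circHIPK2 siRNA, against 37.9%, 41.8% and 39.7% in controls. Neither share overlapped between groups, with group B above and group E below the controls by 4.79 and 4.63 percentage points of the mean. How often entries in general would lie apart in this way, as a part of the same sum, was not counted. The difference in the share of group B was 2.93 percentage points without control library 2, and 6.29 without control library 1. The nearest libraries of group E differed by less than the spread within either group. The share of group C was 19.8% ± 2.98 with circHIPK2 siRNA and 18.9% ± 1.19 in controls, and that of group D was 2.60% ± 0.910 with circHIPK2 siRNA and 3.66% ± 1.199 in controls (SD, n = 3 each), with overlap for both. No test was made on these shares, since they are parts of 1 whole and rest on few genes.

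The group sums cover only the Sox genes chosen for description. Group C therefore leaves out Sox12, and group D is Sox6 alone, without Sox5 and Sox13. In summed FPKM of the chosen genes as deposited, groups B, C and D overlapped between circHIPK2 siRNA and control libraries. For groups C and D this overlap is no statement about all expressed genes of the group. Group B summed to 144 ± 16.5 FPKM with circHIPK2 siRNA and 137 ± 17.8 FPKM in controls. Group C summed to 66.4 ± 7.35 FPKM with circHIPK2 siRNA and 68.3 ± 1.59 FPKM in controls. Group E summed to 119 ± 20.6 FPKM with circHIPK2 siRNA and 144 ± 2.56 FPKM in controls (SD, n = 3 each). The sums of group E did not overlap, at 122, 138 and 97.6 FPKM with circHIPK2 siRNA, against 144, 146 and 141 FPKM in controls. Sox8 was the largest term of the sum. Of all single entries, 22.1% lay entirely below the controls as deposited. With the ribosomal entries removed, the sums of group E overlapped. Those of group B then lay entirely above the controls, as did 14.0% of all single entries. As deposited, the log2 ratio of the group E sums was -0.27, and -0.15 without circHIPK2 siRNA library 3. That of group B was 0.069, and it turned negative without circHIPK2 siRNA library 2 (-0.024) and without control library 2 (-0.022).

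Sox8 itself made up 22.7%, 22.4% and 19.8% of the sum of the 10 genes with circHIPK2 siRNA, against 24.98%, 27.8% and 26.5% in controls. Its ratio to Sox9 in the same library was 1.94, 1.99 and 1.86 with circHIPK2 siRNA, against 2.29, 2.48 and 2.38 in controls, with tight groups that did not overlap. Of all entries, 11.9% had a ratio to Sox9 that lay entirely lower. The ratio of Sox8 to Sox2 was 0.719, 0.728 and 0.652 with circHIPK2 siRNA, against 0.821, 1.19 and 0.980 in controls. It did not overlap either, which was so for 23.7% of all entries in this direction, and Sox2 varied more than Sox8 between controls.

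**Figure D4:**
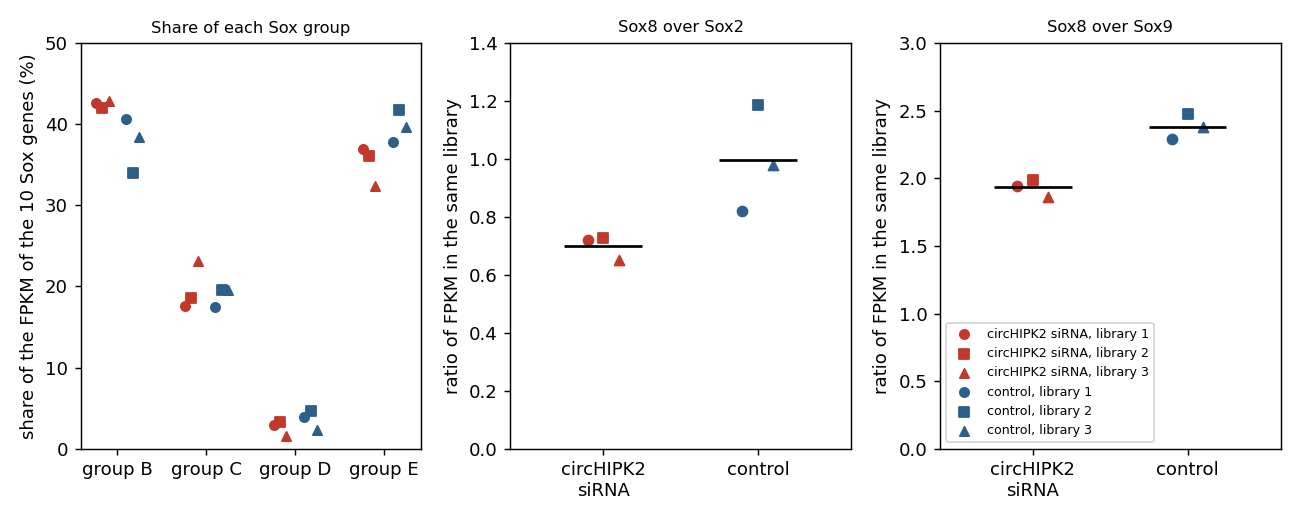
Left, share of each Sox group in the summed FPKM of the 10 Sox genes, in percent; middle and right, ratio of Sox8 to Sox2 and to Sox9 in the same library; circHIPK2 siRNA libraries are red and left, control libraries blue and right, and bars are means. The Sox8 to Sox9 ratio lies between 1.86 and 1.99 with circHIPK2 siRNA and between 2.29 and 2.48 in controls.

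Of the 10 other Sox genes of the table, 3 passed the filter and none passed the test. Sox12, the third group C gene, had 14.8, 18.5 and 15.6 FPKM with circHIPK2 siRNA, against 20.1, 18.7 and 20.5 FPKM in controls, entirely below the controls (log2 fold change -0.27; limma with Benjamini-Hochberg adjustment, adjusted p = 0.260). Sox5, the closest relative of Sox6, had 9.61, 6.34 and 5.72 FPKM with circHIPK2 siRNA, against 7.65, 8.56 and 13.3 FPKM in controls, with overlap. Sox13, also of group D, had 3.56, 2.47 and 2.57 FPKM with circHIPK2 siRNA, against 1.77, 1.81 and 2.64 FPKM in controls, again with overlap. Sox14, Sox17 and Sry were listed at 0 in every library. The miRNA entry Gm25239, which lies inside the exon of Sox1, had 0.556, 0.412 and 0.520 FPKM with circHIPK2 siRNA, against 0.920, 0.423 and 0.916 FPKM in controls. Sox1ot, which shares no exon base with Sox1, had 0.471, 0.306 and 0.261 FPKM with circHIPK2 siRNA, against 0.378, 0.503 and 0.356 FPKM in controls.

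Genes that SOX proteins work with or act on were taken from general knowledge of the family, with earlier results of these data known. A call within these lists is therefore a description and not a test of the lists. Of 14 partners, which bind DNA beside SOX proteins or bind to them, 13 passed the filter and none passed the test. The most abundant was Olig2, the oligodendrocyte lineage factor, with 190, 224 and 196 FPKM with circHIPK2 siRNA, against 245, 221 and 259 FPKM in controls. Ctnnb1, which encodes beta-catenin, had 88.6, 150.4 and 95.8 FPKM with circHIPK2 siRNA, against 184, 146 and 206 FPKM in controls. Both overlapped between groups, and the median log2 fold change of the partners was -0.043, against -0.12 for all entries.

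Of 15 reported targets of the B1 proteins, 11 passed the filter and 1 rose. This was Fos, an immediate early gene of the AP-1 family, with 28.7, 31.9 and 31.4 FPKM with circHIPK2 siRNA, against 16.5, 17.6 and 16.4 FPKM in controls. The groups were far apart, with a log2 fold change of 0.83 (limma with Benjamini-Hochberg adjustment, adjusted p = 0.0134). Of all entries, 0.117% were called higher, a share given as background and not as a test of this list. The other 10 did not pass, among them the 2 most abundant. Fabp7, a fatty acid binding protein of radial glia, had 881, 793 and 592 FPKM with circHIPK2 siRNA, against 1127, 1545 and 946 FPKM in controls. Vim, the intermediate filament of progenitors, had 620.0, 662 and 597 FPKM with circHIPK2 siRNA, against 605, 386 and 530.3 FPKM in controls. Fabp7 lay entirely below the controls and Vim overlapped. The median log2 fold change of this list was -0.015, and the lowest was -0.71. The lowest was that of Hes5, with 11.3, 9.58 and 9.34 FPKM with circHIPK2 siRNA, against 16.9, 19.2 and 15.4 FPKM in controls. Hes5 lay entirely below the controls and did not pass (limma with Benjamini-Hochberg adjustment, adjusted p = 0.0666).

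Of 8 targets of the C proteins, 6 passed the filter and none passed the test. Stmn1, a regulator of microtubules, had 99.7, 121 and 115 FPKM with circHIPK2 siRNA, against 168, 104 and 160 FPKM in controls, with overlap. Map2, a microtubule protein of neurons, had 88.4, 93.7 and 84.8 FPKM with circHIPK2 siRNA, against 106, 106 and 115 FPKM in controls, entirely below the controls. The median log2 fold change was -0.26. Beside this, the summed neuron markers, of which 4 of 8 passed the filter and none the test, were 93.7 to 106 FPKM with circHIPK2 siRNA and 121 to 130.3 FPKM in controls, and Map2 made up most of that sum.

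Of 20 targets of the E proteins, many of them genes of cartilage or myelin, 11 passed the filter and none passed the test. Ednrb, an endothelin receptor, had 175, 200 and 161 FPKM with circHIPK2 siRNA, against 193, 236 and 191 FPKM in controls. Mmd2, a gene of early astrocyte development, had 47.7, 43.4 and 21.5 FPKM with circHIPK2 siRNA, against 35.7, 46.0 and 33.3 FPKM in controls. Both overlapped between groups. The median log2 fold change of the list was -0.21, and 4 of 11 lay above the median of all entries.

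**Figure D5:**
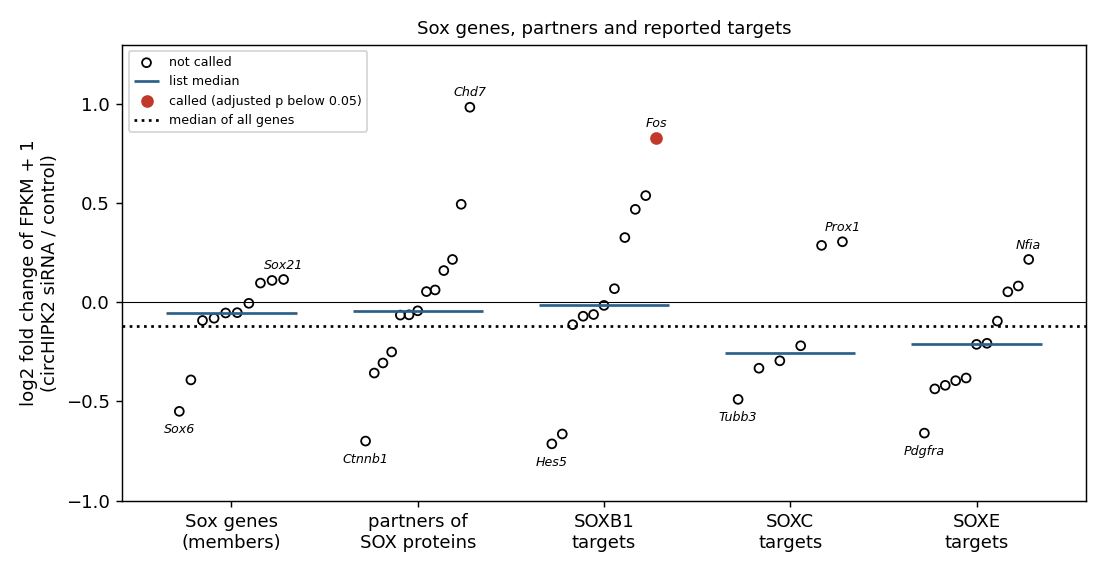
Log2 fold change of FPKM + 1 (circHIPK2 siRNA over control) of the Sox genes, of partners of SOX proteins and of reported targets of groups B1, C and E; each point is a gene that passed the filter, blue bars are list medians, and the dotted line is the median of all entries, -0.12. Fos is the only gene shown that was called (filled), and the 10 Sox genes lie between -0.55 and 0.12.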

How the data were processed

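The members and gene lists were chosen with earlier results of these data known. The deposited FPKM values came from HISAT, StringTie and edgeR with the mm9 build, per the submitters' processing notes. The sources used here do not state versions, annotation, or whether strand and the molecular identifiers in the adapters were used. A pseudocount of 1 was added before log2, so fold changes of low genes are understated. The filter was a mean of 1 FPKM or more, and the test was that of limma 3.58.1 run under R 4.3.3 (mean-variance trend, two-sided, Benjamini-Hochberg over 13702 entries, called at an adjusted p below 0.05). An exact permutation test of 3 against 3 libraries cannot give a p below 0.1. Named were the 10 Sox genes, other Sox genes with a mean of at least 1 FPKM, transcripts named after a Sox locus (ot, os, it) of at least 0.1 FPKM, called genes of each list and otherwise its 2 most abundant tested genes. The other transcripts that overlap Sox genes in GENCODE M21, with a mean of at least 0.1 FPKM, were added after their values were seen. So was Hes5. Steps were tested on simulated data. Depth was read from FPKM steps, since 32.4% to 35.5% of low values fell no more than 0.05 steps from a whole number of steps, where chance gives 10%. Sequences came from GENCODE M21 (GRCm38), so no coordinates are given. Alternatives were other pseudocounts, filters, scalings, variance models, a replicate block, removal of 9 ribosomal entries, and each library left out.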

Additional observations from a re-analysis of the deposited data

How the results depend on the processing

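None of the 10 Sox genes was called under any of the 18 alternatives, and 155 of their 180 fold changes kept their direction. Those of Sox1, Sox21, Sox6 and Sox8 always did. Directions reversed in the following cases, with log2 fold changes for which the cause was not tested. With median-of-ratios scaling they were 0.053 for Sox3, 0.085 for Sox4, 0.12 for Sox11, 0.044 for Sox9 and 0.068 for Sox10. With quantile normalization they were 0.071, 0.13, 0.11, 0.070 and 0.063 for the same genes in that order, and with ribosomal entries removed 0.12, 0.15, 0.18, 0.11 and 0.13. Sox11 was also positive with columns rescaled to an equal sum (0.024), and Sox10 with library weights (0.053). Leaving out 1 library gave -0.022 to 0.22 for Sox2, -0.11 to 0.044 for Sox4, -0.071 to 0.059 for Sox11, -0.19 to 0.022 for Sox9, -0.16 to 0.11 for Sox10, and -0.83 to -0.19 for Sox6.

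Over all entries, 16 were called higher and 19 lower. Calls higher were 10 without a filter, 4 with quantile normalization, 8 with robust moderation and 55 with library weights, and calls lower were 8 at a mean of 5 FPKM, 12 with quantile normalization and 265 with library weights. Leaving out 1 library gave 2 to 15 higher and 6 to 23 lower, the fewest without circHIPK2 siRNA library 3. The log2 ratio of the summed FPKM of group B, 0.069 as deposited, was 0.25 with quantile normalization and 0.27 with ribosomal entries removed, and leaving out 1 library gave -0.024 to 0.17. That of group C (Sox4 and Sox11 alone), -0.041, was 0.099 with median-of-ratios scaling, 0.14 with quantile normalization and 0.17 with ribosomal entries removed. That of group E, -0.27, was -0.076 with ribosomal entries removed.

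Same-numbered libraries deviated together with correlations of 0.046, 0.015 and 0.13, so the numbers were not taken to pair the samples. With the replicate number as a block, 23 entries were called higher and 23 lower, and none of the 10 Sox genes was called.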
